A study of Mus musculus with 12 samples.

Results

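The 10 genes described here encode the glucose carrier Slc2a1 (GLUT1) and 9 enzymes of glycolysis: Hk2, Gpi1, Pfkl, Aldoa, Tpi1, Pgk1, Eno1, Pkm and Ldha. They were taken by name from gene tables of 24881 usable entries, all 10 were found, and all 10 passed the filter on low values. RNA-seq had been run on GFP+ acute myeloid leukaemia cells, which carry the fusion oncogene MLL-AF9 found in human leukaemia and were sorted from mouse bone marrow. Every group carried the MLL-AF9 transgene. The relapse group held 4 mice taken 10 days after induction chemotherapy with doxorubicin and cytarabine had ended, the iCT group held 3 mice taken 3 days after it had ended, and the vehicle group held 5 mice given no chemotherapy. The labels give neither the age, strain and sex of the mice nor the promoter of the transgene, nor do they say whether the leukaemias share a clone. The samples are numbered within each group, and each is taken here as a mouse of its own.

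Glucose enters the cell through carriers such as Slc2a1 and is trapped by hexokinases as glucose 6-phosphate. Phosphofructokinase commits it to glycolysis, the later enzymes make ATP, NADH and pyruvate, and lactate dehydrogenase turns pyruvate into lactate while it restores NAD+. The pathway is known for its high activity in dividing cells and leukaemia blasts, and its genes are known targets of the transcription factors Hif1a and Myc. These can bind DNA at sites that hold the letters ACGTG and CACGTG, among other forms. RNA levels measure neither enzyme activity nor flux.

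The promoters of 3 of the genes are shown because Hk2 and Pfkl were the only ones of the 10 to pass the test in any of the comparisons, both higher in relapse than in iCT, and Ldha had the largest fitted difference of the opposite sign there. Each line gives 250 bases before to 50 after a RefSeq transcription start on GRCm38.p6, 5′ to 3′ on the gene's strand, and capitals mark ACGTG on either strand (it reads CACGT where it lies on the other strand). The windows are chr6:82774405-82774704 (minus strand) for Hk2, chr10:78009758-78010057 (minus strand) for Pfkl and chr7:46845554-46845853 (plus strand) for Ldha.
Hk2: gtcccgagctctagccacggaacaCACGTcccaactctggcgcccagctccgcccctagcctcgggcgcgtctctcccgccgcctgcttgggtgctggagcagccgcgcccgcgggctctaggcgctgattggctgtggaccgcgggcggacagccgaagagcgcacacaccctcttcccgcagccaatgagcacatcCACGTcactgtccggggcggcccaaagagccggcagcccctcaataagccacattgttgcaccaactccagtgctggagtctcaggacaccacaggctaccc
Pfkl: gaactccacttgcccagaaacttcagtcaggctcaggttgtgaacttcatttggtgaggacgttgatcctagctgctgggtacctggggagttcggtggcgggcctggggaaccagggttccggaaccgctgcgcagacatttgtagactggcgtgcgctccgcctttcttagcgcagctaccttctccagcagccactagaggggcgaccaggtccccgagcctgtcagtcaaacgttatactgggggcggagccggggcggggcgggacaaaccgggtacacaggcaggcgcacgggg
Ldha: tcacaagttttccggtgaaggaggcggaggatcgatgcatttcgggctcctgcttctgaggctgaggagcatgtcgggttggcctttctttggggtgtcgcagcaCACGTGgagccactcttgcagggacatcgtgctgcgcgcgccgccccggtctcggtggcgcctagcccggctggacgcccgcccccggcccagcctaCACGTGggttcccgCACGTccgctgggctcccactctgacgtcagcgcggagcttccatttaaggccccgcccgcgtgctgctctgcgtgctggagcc
The Hk2 window holds 2 separate matches, the Ldha window 3, and the Pfkl window none of these letters. Of the Ldha matches, 2 are the longer CACGTG, which contains ACGTG. All 10 genes had at least 1 RefSeq window, 16 windows in all. ACGTG was present in a window of 6 of them (Slc2a1, Hk2, Aldoa, Pgk1, Pkm and Ldha), against 21.8% of the 27025 gene symbols in the table. A gene with more windows has more room for a match. Counted by window, ACGTG was present in 7 of the 16, against 19.6% of all 32851 windows, and overlapping Aldoa windows shared their match. CACGTG was present for Ldha alone, against 8.09% of symbols. These matches are a description of letters, and no test was made of them. Other forms of the sites were not searched for, so a window without ACGTG may still hold one.

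Levels are given in FPKM, a unit that corrects for both transcript length and library size, so that levels of different genes may be compared. The depth implied by the deposited confidence intervals was 361914 fragments in iCT mouse 1 and 1225254 to 8359793 in the other libraries. The deposited intervals of the 10 genes, taken as 95% intervals, reached 7.07 to 43.6% either side of the value in iCT mouse 1. In the others they reached 1.47 to 30.1%. They are set within each library and do not cover the spread between mice. Nor did level alone set them: in iCT mouse 2 they reached 4.31% for Aldoa (886 FPKM) and 1.47% for Gpi1 (681 FPKM). The implied depths treat the intervals as counting error alone and are approximate. In bulk libraries, fewer cells of a type and less RNA per cell cannot be told apart. Log2 changes are on the log2(FPKM + 1) scale, from limma fitted to all 11019 genes that reached 1 FPKM in at least 3 libraries, with Benjamini-Hochberg adjustment over them. A gene passed the test at an adjusted p under 0.05.

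Of the 11 markers fixed for the labelled cells, among them Mpo, Elane, Hoxa9 and Meis1, all were detected. In iCT against vehicle, 1 of them passed the test, the stem cell factor receptor Kit, which was 8.72, 5.60 and 6.21 FPKM in iCT mice, against 25.2, 25.5, 26.3, 27.5 and 24.3 FPKM in vehicle mice. Markers of other marrow cells also differed with treatment. The summed level of 13 macrophage markers was 116 to 139 FPKM in relapse, 183 to 341 FPKM in iCT and 158 to 210 FPKM in vehicle libraries, and of 10 tested in iCT against vehicle 7 were higher and 1 was lower. The sum of 9 osteoclast markers was 47.9 to 170 FPKM in relapse, 261 to 995 FPKM in iCT and 25.1 to 79.0 FPKM in vehicle libraries, with 6 of 7 tested higher in iCT than in vehicle. The 10 neutrophil markers summed to 6768 to 15886 FPKM in relapse, 15288 to 19531 in iCT and 4086 to 14912 in vehicle libraries. Of these 10, 7 had positive log2 changes in iCT against vehicle, and 3 passed as higher and 0 as lower. Of 7 erythroid markers tested 3 were lower in iCT than in vehicle. The sum of 5 megakaryocyte markers was 2.40 to 4.90 FPKM in relapse, 11.2 to 26.8 FPKM in iCT and 1.65 to 7.37 FPKM in vehicle libraries, and 1 of 2 tested was higher in iCT than in vehicle. Of 3 B and plasma cell markers tested 1 was lower, and of 5 stromal markers tested 1 was lower, in iCT than in vehicle. T and natural killer cell markers summed to at most 4.47 FPKM in any library. No marker of any list was at 0 in every library. These cell type differences move with the iCT group in each result below that sets it against another group, and their part in those results was not tested.

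Gpi1, which acts early in the pathway, and the described enzymes that act after Pfkl were among the most abundant mRNAs. Slc2a1, Hk2 and Pfkl were not. Averaged over the 12 libraries, Pkm (1046 FPKM), Aldoa (952 FPKM), Ldha (881 FPKM), Eno1 (689 FPKM), Gpi1 (686 FPKM), Pgk1 (492 FPKM) and Tpi1 (344 FPKM) all stood above the 97th percentile of tested genes. Pfkl averaged 38.1 FPKM, Slc2a1 18.1 FPKM and Hk2 15.6 FPKM, at the 77.8th, 61.5th and 57.9th percentiles. These are levels of single genes and not of whole steps. The hexokinase Hk3 averaged 219, 152 and 186 FPKM in the relapse, iCT and vehicle groups. In relapse libraries the order was Pkm, Aldoa, Ldha, Eno1, Gpi1, Pgk1, Tpi1, Pfkl, Hk2 and Slc2a1. Neighbours in that order overlapped from Pkm down to Gpi1, and so did Hk2 and Slc2a1. In iCT libraries Ldha came second and Hk2 last, with the ranges of Pkm, Ldha and Aldoa overlapping as neighbours and that of Hk2 below that of Slc2a1. In vehicle libraries Aldoa came first, with Aldoa, Pkm and Ldha overlapping as neighbours. These orders take Eno1 without Eno1b, a near-identical copy described below. Summed with it, Eno1 averaged 896, 1091 and 842 FPKM in the relapse, iCT and vehicle groups, and its place in each order would be higher.

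Slc2a1, the carrier, lies at chr4:119108745-119137329 (GRCm38, as are all loci here). It had 18.5, 15.7, 20.1 and 19.8 FPKM in relapse mice, 26.4, 15.2 and 23.1 FPKM in iCT mice and 12.3, 16.2, 13.9, 20.2 and 15.5 FPKM in vehicle mice. iCT mice 1 and 3 were above every vehicle mouse and iCT mouse 2 was inside the vehicle range, so the groups overlapped. The log2 change was 0.42 in iCT against vehicle (SE 0.19, adjusted p = 0.151 by limma), which did not pass. Without iCT mouse 2 it was 0.65 and passed (adjusted p = 0.0232 by limma).

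Hk2, a hexokinase that binds mitochondria and is the inducible form in many tumours, lies at chr6:82725027-82774454. It had 20.0, 20.1, 18.6 and 20.5 FPKM in relapse mice, 9.51, 11.2 and 14.9 FPKM in iCT mice and 10.3, 16.03, 14.7, 17.1 and 14.4 FPKM in vehicle mice. Every relapse mouse was above every mouse of the other groups, while iCT and vehicle overlapped. The mean was 19.8 ± 0.828 FPKM in relapse (SD, n = 4) and 11.9 ± 2.74 FPKM in iCT (SD, n = 3). Hk2 was 1.64-fold higher in relapse than in iCT (log2 change 0.72, 95% interval 0.33 to 1.098, adjusted p = 0.0259 by limma). Against vehicle the log2 change in relapse was 0.44 (95% interval 0.10 to 0.78, adjusted p = 0.225 by limma), which did not pass.

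Gpi1, which turns glucose 6-phosphate into fructose 6-phosphate, lies at chr7:34201327-34230336. It had 701, 603, 643 and 704 FPKM in relapse mice, 723, 681 and 758 FPKM in iCT mice and 631, 696, 679, 775 and 643 FPKM in vehicle mice. All 3 groups overlapped, and the log2 change in iCT against vehicle was 0.08 with a 95% interval of -0.12 to 0.27.

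Pfkl, the liver-type phosphofructokinase of the committed step, lies at chr10:77986949-78009796. It had 41.0, 40.7, 41.8 and 48.8 FPKM in relapse mice, 25.3, 28.0 and 34.2 FPKM in iCT mice and 32.0, 45.2, 37.0, 48.5 and 34.6 FPKM in vehicle mice. Every relapse mouse was above every iCT mouse, and iCT mouse 3 alone among its group was inside the vehicle range. Pfkl was 1.47-fold higher in relapse than in iCT (log2 change 0.55, 95% interval 0.22 to 0.89, adjusted p = 0.0421 by limma). The log2 change was -0.42 in iCT against vehicle (adjusted p = 0.0904) and 0.14 in relapse against vehicle (adjusted p = 0.696), and neither passed in limma.

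Aldoa, which splits fructose 1,6-bisphosphate, lies at chr7:126795234-126800447. It had 954, 854, 939 and 1040.4 FPKM in relapse mice, 950.2, 886 and 843 FPKM in iCT mice and 878, 994, 1011, 1138.5 and 942 FPKM in vehicle mice. Tpi1, which interconverts the resulting triose phosphates, lies at chr6:124810592-124814296 and had 341, 340.5, 355 and 369.6 FPKM in relapse mice, 292, 362 and 313 FPKM in iCT mice and 327, 359, 334, 382 and 349.9 FPKM in vehicle mice. For both genes all groups overlapped, and no 95% interval of a log2 change reached beyond 0.36 in either direction.

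Pgk1, the first ATP-making enzyme of the pathway, lies at chrX:106187100-106203699. It had 441, 460.1, 486 and 444 FPKM in relapse mice, 391, 544 and 492 FPKM in iCT mice and 560.3, 538, 505, 520.4 and 523 FPKM in vehicle mice. Every relapse mouse was below every vehicle mouse, and the iCT mice spanned both groups. The log2 change in relapse against vehicle was -0.21 (95% interval -0.41 to -0.01, adjusted p = 0.322 by limma), which did not pass.

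Eno1, which makes phosphoenolpyruvate, lies at chr4:150237197-150248873. It had 676, 612, 629 and 788 FPKM in relapse mice, 809, 822 and 799 FPKM in iCT mice and 511, 659.7, 667, 729 and 562 FPKM in vehicle mice. Every iCT mouse was above every mouse of both other groups, and the SD within iCT was 11.7 FPKM. The log2 change in iCT against vehicle was 0.38 (95% interval 0.12 to 0.65, adjusted p = 0.0622 by limma), just outside the threshold. It passed with median-of-ratios scaling (adjusted p = 0.0236), with quantile normalization (adjusted p = 0.02) and without vehicle mouse 4 (adjusted p = 0.0483), all by limma. The tables also list Eno1b, a near-identical copy of Eno1, at another locus and again inside the Eno1 locus, and reads of these entries may have been divided between them. The entry at the other locus had 204, 223, 231 and 222 FPKM in relapse mice, 276, 271 and 284 FPKM in iCT mice and 178, 215, 198, 223 and 203 FPKM in vehicle mice. It was higher in iCT than in vehicle (log2 change 0.45, adjusted p = 0.00877 by limma) and lower in relapse than in iCT (log2 change -0.33, adjusted p = 0.0362 by limma). The entry inside the Eno1 locus was 64.0 FPKM in vehicle mouse 5 and at most 7.72 FPKM in the other libraries. With the 3 entries summed, the level was 1091 ± 9.56 FPKM in iCT (SD, n = 3), against 842 ± 96.3 FPKM in vehicle (SD, n = 5), and the log2 change of 0.38 passed (adjusted p = 0.0386 by limma).

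Pkm, the pyruvate kinase that in blood cells is made in alternative isoforms not separated by gene-level values, lies at chr9:59656368-59679375. It had 1138, 1031, 1182 and 1129 FPKM in relapse mice, 1053, 955 and 1165 FPKM in iCT mice and 789, 1095.5, 985, 1145 and 882 FPKM in vehicle mice. The groups overlapped in all comparisons, and the largest log2 change was 0.20 in relapse against vehicle (95% interval -0.04 to 0.45).

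Ldha, which makes lactate, lies at chr7:46845804-46855627. It had 797, 713, 755 and 933 FPKM in relapse mice, 881, 1228 and 1008 FPKM in iCT mice and 777, 866, 897, 917 and 799 FPKM in vehicle mice. iCT mice 2 and 3 were above every other mouse, and iCT mouse 1 was inside both other ranges. The log2 change was 0.28 in iCT against vehicle (adjusted p = 0.142 by limma) and -0.37 in relapse against iCT (adjusted p = 0.0771 by limma), and neither passed. Without iCT mouse 1 the difference between relapse and iCT was -0.48 and passed (adjusted p = 0.0419 by limma). With quantile normalization both passed (adjusted p 0.0247 and 0.0177 by limma).

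**Figure D1:**
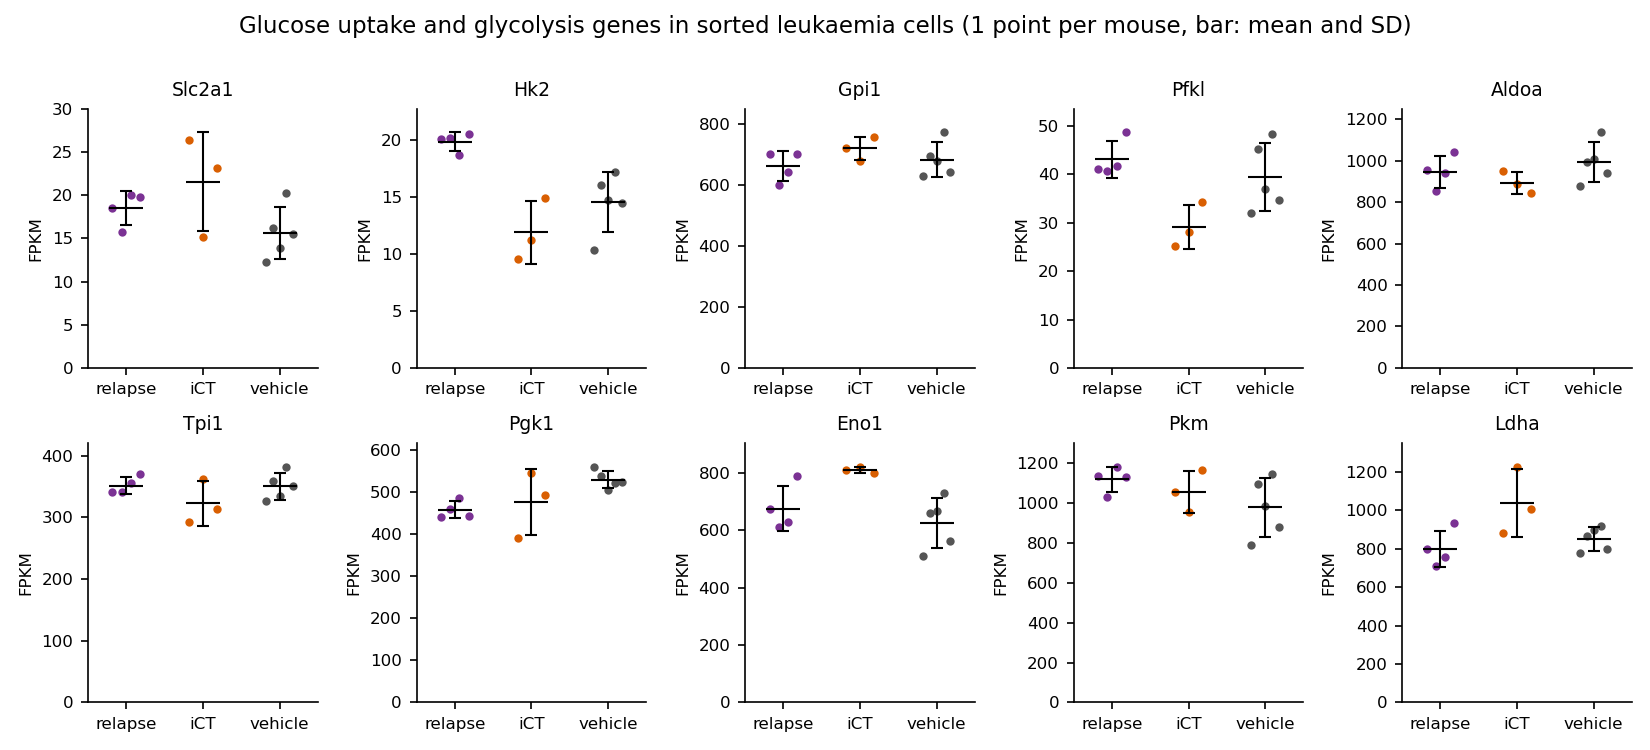
FPKM (linear axis from 0) of the 10 genes in each mouse of the relapse, iCT and vehicle groups, with bars for the mean and SD. Relapse mice lie above all others for Hk2 (18.6 to 20.5 FPKM), and iCT mice lie above all others for Eno1 (799 to 822 FPKM).

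At day 3, iCT against vehicle, 0 of the 10 genes passed the test in limma, against 9.62% of all genes tested, of which 3.31% were higher and 6.31% lower. At an unadjusted p under 0.05, 4 of the 10 stood out (Slc2a1, Eno1 and Ldha with positive and Pfkl with negative log2 changes), against 29.8% of all genes. In 1 gene, Eno1, the groups did not overlap, against 16.1% of all genes. The median log2 change was -0.02 over the 10 genes and -0.08 over all genes tested. The SE of the log2 change was 0.09 to 0.19 among the 10 genes, so the size of change that could be detected differed between them.

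At day 10, relapse against vehicle, 0 of the 10 genes passed the test in limma, as did 0% of all genes, whose lowest adjusted p was 0.173. At an unadjusted p under 0.05, 2 of the 10 stood out (Hk2 and Pgk1), against 14.6% of all genes, and the groups did not overlap for the same genes, against 13.7% of all genes. The median log2 change was 0.06 over the 10 genes and 0.06 over all genes. With weights for library quality (array weights), Hk2 passed at a log2 change of 0.39 (adjusted p = 0.0395 by limma). Under those weights 971 of all 11019 genes tested passed.

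Between the treated groups, relapse against iCT, 2 of the 10 genes passed, Hk2 and Pfkl, both higher in relapse. Over all genes 9.72% passed, 6.62% higher and 3.1% lower. At an unadjusted p under 0.05 there were 3 of 10 (Hk2, Pfkl and Ldha), against 29%, and the groups did not overlap for 3 of 10 (Hk2, Pfkl and Eno1), against 23.3% of all genes. The median log2 change was 0.02 over the 10 genes and 0.16 over all genes. The calls depended on the libraries fitted. Hk2 no longer passed without iCT mouse 1 or without any 1 of the 4 relapse mice (adjusted p 0.0518 to 0.0676 by limma). Pfkl failed without vehicle mouse 3 or 5, iCT mouse 1 or 2, or any 1 relapse mouse (adjusted p 0.0554 to 0.112 by limma). Neither passed with array weights, with the replicate block or with only the relapse and iCT groups in the fit (adjusted p of Hk2 0.066 to 0.0934). The log2 change of Hk2 was 0.58 without iCT mouse 1 and 0.70 to 0.74 without a relapse mouse. Without a relapse mouse, calls over all genes also fell, from 1071 to between 529 and 593. Median-of-ratios scaling moved the median of all genes by -0.10, and relative to that median Hk2 was 0.55 and Pfkl 0.38 higher on the log2 scale, against 0.55 and 0.39 before it. Under that scaling Pfkl did not pass (adjusted p = 0.0701), while Eno1 (log2 change -0.38, adjusted p = 0.0462) and Ldha (log2 change -0.49, adjusted p = 0.0193) passed as lower in relapse, all by limma.

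**Figure D2:**
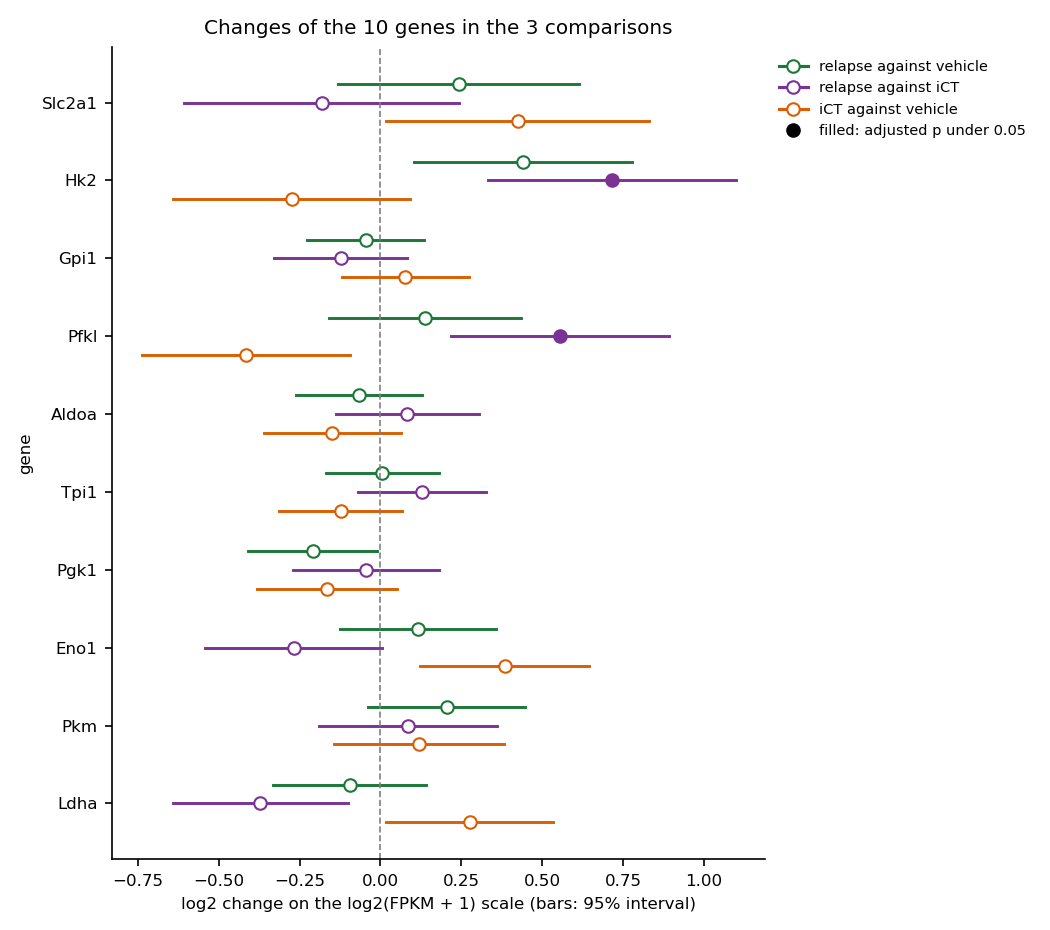
Log2 change of each gene with its 95% interval (x axis, log2(FPKM + 1) scale) in the 3 comparisons, filled where the adjusted p was under 0.05. Filled points are Hk2 (0.72) and Pfkl (0.55) in relapse against iCT.

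Summed over the 10 genes, the level was 5095 ± 330.3 FPKM in relapse (SD, n = 4), 5382 ± 195 FPKM in iCT (SD, n = 3) and 5083 ± 454 FPKM in vehicle (SD, n = 5). That was 0.628 ± 0.0182%, 0.655 ± 0.0412% and 0.598 ± 0.0449% of the summed FPKM in the relapse, iCT and vehicle groups. In 2 of the groups single mice were high or low for most of the genes: vehicle mouse 4 had the highest value of its group for 9 of the 10 and vehicle mouse 1 the lowest for 9, while relapse mouse 4 was highest for 7 and relapse mouse 2 lowest for 8. In iCT no mouse was highest for more than 4 or lowest for more than 5. No test was made of this. Pgk1 was highest of the vehicle group in vehicle mouse 1.

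Across the 12 libraries, the tested genes whose pattern was most like the mean standardized level of the 10 were Rbck1 (Pearson r = 0.94), Zfp771 (0.87), Anapc5 (0.87), Slc25a39 (0.86) and Tbc1d10b (0.86). Without iCT mouse 1 they were Pigl (0.96), Rbck1 (0.94), Arfgap2 (0.91), Csl (0.90) and Anapc5 (0.89). Of the 10 genes themselves, each of which is part of that mean, Pkm had 0.77, Gpi1 0.72 and Pgk1 -0.05 over 12 libraries, and Pkm 0.80, Gpi1 0.80 and Pgk1 -0.27 without iCT mouse 1. All points share each library's scaling and depth, and these values are a description.

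Isoenzymes of the members were set beside them as shares within a library, which scaling between libraries does not touch. Hk3, a hexokinase of myeloid cells, made up most of the hexokinase FPKM of Hk1, Hk2 and Hk3, at 76.5 ± 1.27% in relapse, 71.3 ± 3.49% in iCT and 78.7 ± 1.02% in vehicle (SD, n = 4, 3 and 5). The share of Hk2 was 7.15, 7.41, 5.68 and 7.79% in relapse mice, 5.51, 5.57 and 5.69% in iCT mice and 6.18, 5.86, 5.94, 6.48 and 6.37% in vehicle mice. Every iCT mouse was below every vehicle mouse. That gave an exact two-sided permutation p of 0.0357, the smallest that 3 against 5 mice allow, and an adjusted p of 0.257 over 12 shares and comparisons.

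Pfkl made up 57.4 ± 1.95% of phosphofructokinase FPKM in relapse, 49.0 ± 3.89% in iCT and 53.8 ± 4.44% in vehicle (SD, n = 4, 3 and 5). Relapse and iCT mice did not overlap (exact two-sided permutation p = 0.0571, the smallest that 4 against 3 allow, adjusted p = 0.257). Ldha made up 97.8 ± 0.984%, 98.9 ± 0.927% and 98.6 ± 0.521% of the FPKM of Ldha and Ldhb in relapse, iCT and vehicle. Slc2a1 made up 77.8 ± 5.09%, 72.5 ± 11.3% and 82.7 ± 3.40% of the FPKM of Slc2a1 and Slc2a3 in those groups, and iCT mouse 1 stood lowest at 59.5%. Its share was 10.2 points lower in iCT than in vehicle (a difference of -10.2), but 8.15 points higher when all listed carriers, Slc2a6 among them, were counted, and relapse against iCT turned with it, at -11.9 points with all carriers and 5.30 points with these 2. None of the 12 share comparisons passed after adjustment by exact permutation, where the lowest adjusted p was 0.257. With so few mice this test could hardly pass after adjustment. In relapse against iCT its smallest p of 0.0571 could not pass at all, so no conclusion is drawn from the failure.

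**Figure D3:**
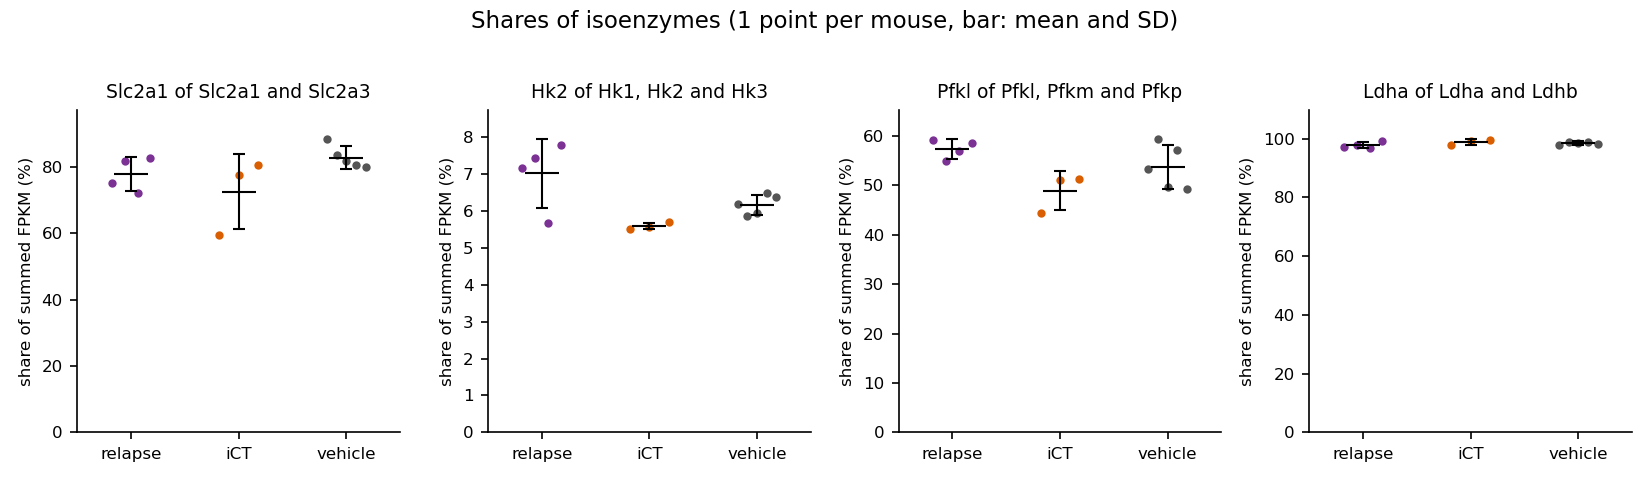
Share (%) of Slc2a1, Hk2, Pfkl and Ldha in the summed FPKM of their isoenzymes in each mouse of the relapse, iCT and vehicle groups, with mean and SD. Ldha lies at or above 96.8% in every mouse, while Hk2 lies between 5.51 and 7.79%.

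Around the 10 genes, 67 genes of the listed neighbouring pathways were tested. In iCT against vehicle 13 of them passed (19.4%, 3 higher and 10 lower), against 9.62% of all genes, and in relapse against iCT 11 passed (16.4%, 10 higher and 1 lower), against 9.72% of all genes. No test set the lists against the other genes. When the fit held only the iCT and vehicle groups, 11 of the 13 no longer passed, and G6pdx was among those that did.

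Of the other glycolytic steps, Pgam1, which makes 2-phosphoglycerate ahead of Eno1, was lower in iCT than in vehicle. It had 548, 606, 634 and 579.8 FPKM in relapse mice, 481, 493 and 498 FPKM in iCT mice and 598, 603, 634, 635 and 605 FPKM in vehicle mice. The log2 change was -0.33 in iCT against vehicle (adjusted p = 0.0178) and 0.27 in relapse against iCT (adjusted p = 0.0424) in limma. Gapdh, which makes 1,3-bisphosphoglycerate, was 2776 ± 226 FPKM in relapse (SD, n = 4), 2988 ± 238 FPKM in iCT (SD, n = 3) and 2623 ± 245 FPKM in vehicle (SD, n = 5) and passed in no comparison. Under quantile normalization the difference of Pgam1 between iCT and vehicle no longer passed (adjusted p = 0.153 by limma). That of Pgam1 between relapse and iCT no longer passed with median-of-ratios scaling (log2 change 0.15, adjusted p = 0.235) or without any 1 library other than vehicle mouse 1 and iCT mice 2 and 3 (adjusted p 0.0513 to 0.112).

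Of 21 isoenzymes and related carriers, 13 were tested. In iCT against vehicle 3 were lower and 0 higher, and in relapse against iCT the same 3 were higher: the hexose carrier Slc2a6, Aldoc and Eno3. Slc2a6 had 9.71, 10.4, 12.5 and 13.8 FPKM in relapse mice, 0, 1.54 and 5.25 FPKM in iCT mice and 8.41, 10.2, 9.44, 9.66 and 7.38 FPKM in vehicle mice. Its log2 change was -1.99 in iCT against vehicle (adjusted p = 0.0135) and 2.31 in relapse against iCT (adjusted p = 0.00854) in limma. Slc2a6 was listed at 0 in the shallow iCT mouse 1, and its log2 change in iCT against vehicle was -1.32 without that mouse, -1.20 with array weights and -3.24 with a pseudocount of 0.1, all past the threshold. Aldoc and Eno3 were low throughout, at most 6.32 and 3.43 FPKM in any mouse, and both were also listed at 0 in iCT mouse 1. Their log2 changes depended on the pseudocount, at -2.58 for Aldoc and -2.72 for Eno3 in iCT against vehicle with 0.1. Aldoc was lower in iCT than in vehicle (log2 change -1.24, adjusted p = 0.0207 by limma) but not without iCT mouse 1 (adjusted p = 0.0609). Eno3 was lower too (log2 change -1.27, adjusted p = 0.0268 by limma), but not without iCT mouse 1 or vehicle mouse 1, 3 or 4 (adjusted p 0.0519 to 0.0828). In relapse against iCT the log2 change was 1.93 for Aldoc (adjusted p = 0.0035) and 1.19 for Eno3 (adjusted p = 0.0393) in limma, and the Eno3 call ended without vehicle mouse 4 or 5, iCT mouse 1 or relapse mouse 2, 3 or 4 (adjusted p 0.053 to 0.106). Hk1, Hk3, Pfkm, Pfkp, Ldhb and Slc2a3 passed in no comparison, the nearest being Pfkm in relapse against iCT (log2 change 0.58, adjusted p = 0.0581 by limma).

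The pentose phosphate pathway, which branches off at glucose 6-phosphate to make NADPH and ribose, had 7 genes tested, and 1 was higher and 1 lower in iCT than in vehicle. G6pdx, its first and rate-limiting enzyme, had 82.6, 79.3, 87.3 and 75.3 FPKM in relapse mice, 159.8, 118 and 144 FPKM in iCT mice and 61.9, 88.9, 77.0, 80.8 and 78.8 FPKM in vehicle mice. Every iCT mouse was above every other mouse. G6pdx was 1.80-fold higher in iCT than in vehicle (log2 change 0.85, 95% interval 0.58 to 1.12, adjusted p = 0.0022 by limma) and lower in relapse than in iCT (log2 change -0.78, adjusted p = 0.00515 by limma). Taldo1, transaldolase of the non-oxidative arm, had 897, 742, 794 and 840.0 FPKM in relapse mice, 531, 674 and 618 FPKM in iCT mice and 766, 855, 826, 906 and 812 FPKM in vehicle mice. Its log2 change was -0.46 in iCT against vehicle (adjusted p = 0.0145) and 0.43 in relapse against iCT (adjusted p = 0.0214) in limma. Without iCT mouse 1 neither passed (adjusted p 0.0505 and 0.0679), and the second also failed without relapse mouse 1 or 4 (adjusted p 0.061 and 0.0577).

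Of 15 genes for glycogen, gluconeogenesis and glycerol phosphate, 12 were tested. Fbp1, the gluconeogenic enzyme that reverses the phosphofructokinase step, was 15.0, 14.5, 13.2 and 13.4 FPKM in relapse mice, 15.1, 14.2 and 15.1 FPKM in iCT mice and 8.46, 10.2, 3.43, 6.87 and 5.23 FPKM in vehicle mice. It was higher in iCT than in vehicle (log2 change 1.08, adjusted p = 0.0181 by limma), and no vehicle mouse reached any treated mouse. In relapse against vehicle its log2 change was 1.01 (adjusted p = 0.173 by limma), which did not pass. The glycogen phosphorylases Pygb and Pygl were higher in relapse than in iCT, Pygb by a log2 change of 0.98 (adjusted p = 0.0441 by limma) and Pygl by 0.52 (adjusted p = 0.0447 by limma). Neither held without iCT mouse 1 (adjusted p 0.0706 and 0.131), without any 1 of the relapse mice or without vehicle mouse 2, 3, 4 or 5, nor did Pygl without vehicle mouse 1 or iCT mouse 2 (adjusted p 0.0524 to 0.131 in all). The log2 change of Pygb was 0.54 without iCT mouse 1 and 0.54 with array weights.

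Lactate and pyruvate handling had 14 of 15 genes tested, and 2 were lower in iCT than in vehicle. Slc16a7, a monocarboxylate carrier, was 3.30 ± 0.305 FPKM in relapse (SD, n = 4), 2.28 ± 0.161 FPKM in iCT (SD, n = 3) and 4.23 ± 0.302 FPKM in vehicle (SD, n = 5), with a log2 change of -0.67 in iCT against vehicle (adjusted p = 0.0129 by limma). Mpc1, a subunit of the carrier that takes pyruvate into mitochondria, was 71.1 ± 4.72 FPKM in relapse, 73.5 ± 8.60 FPKM in iCT and 95.5 ± 8.57 FPKM in vehicle, with a log2 change of -0.37 in iCT against vehicle (adjusted p = 0.0423 by limma). The Mpc1 call ended without any 1 of the libraries except iCT mouse 2 (adjusted p 0.0542 to 0.103). The lactate exporters Slc16a1 and Slc16a3 and the kinase Pdk1, which shuts pyruvate dehydrogenase, passed in no comparison, with Slc16a1 nearest in relapse against iCT (log2 change -0.49, adjusted p = 0.0505 by limma).

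Of 15 regulators 14 were tested, and in iCT against vehicle 3 were lower and 1 higher. The 3 that were lower control the stability of Hif1a: Egln1 and Egln3 are prolyl hydroxylases that mark it, and Vhl is the ubiquitin ligase subunit that binds the mark. Egln1 had 21.8, 23.5, 22.0 and 24.04 FPKM in relapse mice, 15.2, 15.8 and 14.2 FPKM in iCT mice and 19.4, 20.1, 24.8, 21.4 and 21.5 FPKM in vehicle mice. Its log2 change was -0.48 in iCT against vehicle (adjusted p = 0.018) and 0.57 in relapse against iCT (adjusted p = 0.0106) in limma. Egln3 was 10.7 ± 1.85 FPKM in relapse (SD, n = 4), 5.72 ± 0.419 FPKM in iCT (SD, n = 3) and 11.03 ± 2.18 FPKM in vehicle (SD, n = 5). Its log2 change was -0.82 in iCT against vehicle (adjusted p = 0.0154) and 0.78 in relapse against iCT (adjusted p = 0.0217) in limma. Vhl was 10.8 ± 0.685 FPKM, 7.23 ± 0.689 FPKM and 11.3 ± 1.06 FPKM in the relapse, iCT and vehicle groups, and limma gave a log2 change of -0.58 in iCT against vehicle (adjusted p = 0.0149) and of 0.52 in relapse against iCT (adjusted p = 0.0278). In relapse against iCT, Egln3 did not pass without relapse mouse 2 or 4 (adjusted p 0.0621 and 0.0647), nor Vhl without any 1 of the relapse mice (adjusted p 0.0587 to 0.0785).

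Akt1, a kinase that promotes glucose uptake, was 140 ± 15.1 FPKM in iCT (SD, n = 3), against 106 ± 8.37 FPKM in vehicle (SD, n = 5), with a log2 change of 0.39 (adjusted p = 0.0392 by limma). It did not pass without vehicle mouse 1, 3, 4 or 5, iCT mouse 1 or 3, or relapse mouse 1 or 2 (adjusted p 0.055 to 0.0968). Hif1a itself was 14.7 ± 0.656 FPKM, 13.4 ± 2.72 FPKM and 16.5 ± 1.94 FPKM in the relapse, iCT and vehicle groups, Myc was 83.2 ± 6.40 FPKM, 86.8 ± 31.2 FPKM and 63.2 ± 5.18 FPKM, and Txnip, which limits glucose uptake, was 45.5 ± 9.94 FPKM, 41.6 ± 14.2 FPKM and 46.2 ± 4.04 FPKM. None of these 3 passed in any comparison, and of 5 genes that control fructose 2,6-bisphosphate, Pfkfb3 among them, 0 passed. In relapse against vehicle, 0 genes of any of these lists passed in the main fit, in which 0 of all 11019 genes tested did. With only the relapse and vehicle groups in the fit, 612 of 10833 genes passed, so the 0 holds for the main fit.

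**Figure D4:**
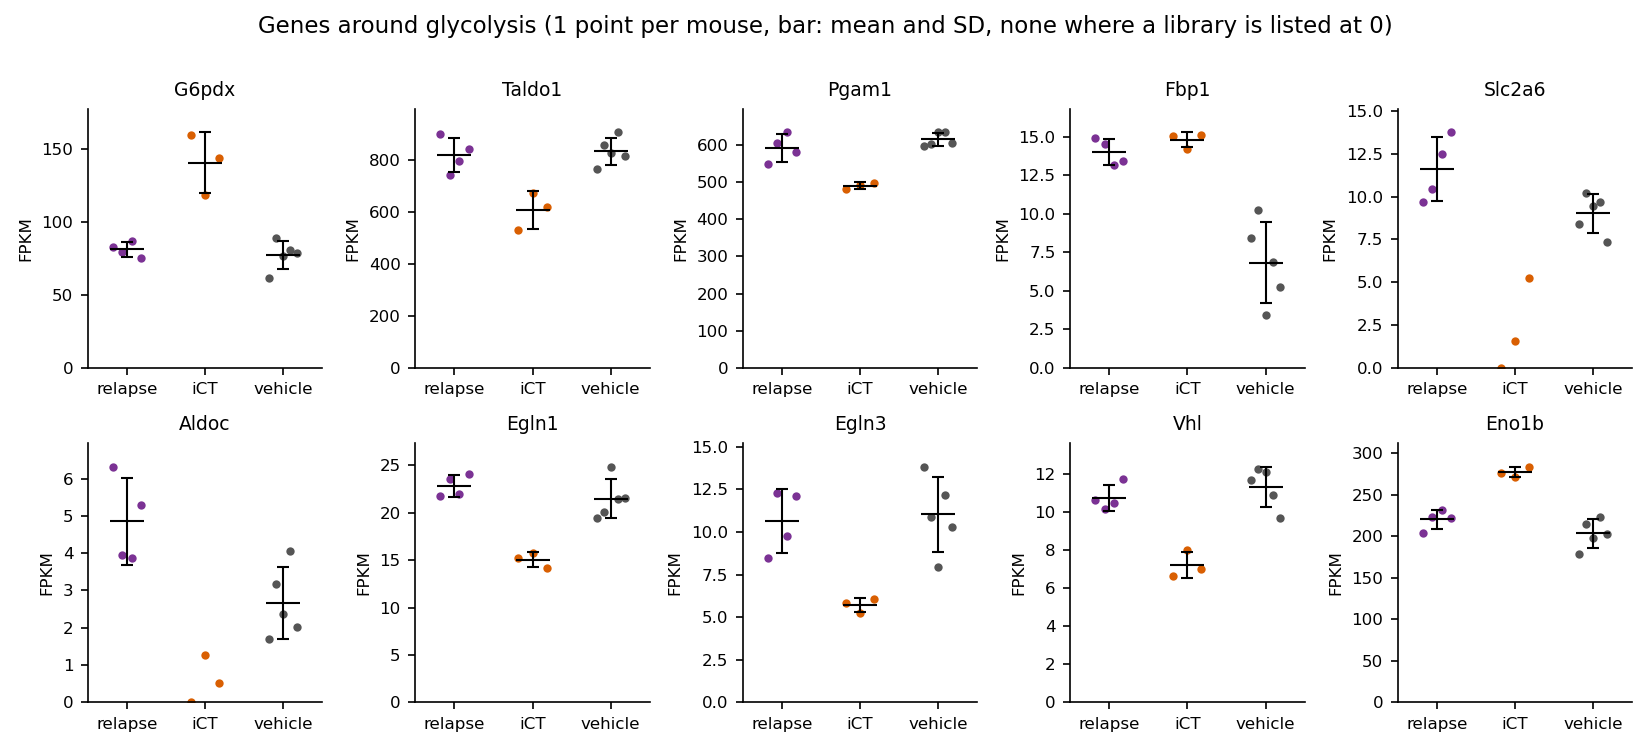
FPKM (linear axis from 0) of genes around glycolysis in each mouse of the relapse, iCT and vehicle groups, with mean and SD except where a library is listed at 0. In iCT mice G6pdx lies above all other mice (118 to 159.8 FPKM) and Egln1 below all other mice (14.2 to 15.8 FPKM).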

How the data were processed

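The authors' deposited gene tables give each gene an FPKM value and the 2 ends of its confidence interval, per the file headers. The headers state no level, and 95% was assumed here. The submitters' processing notes name STAR, Cufflinks and the build mm9. The loci of the 10 genes matched RefSeq genes on GRCm38, the build used here. Gene models, strandedness and the handling of reads that map to several places are not stated in the labels or headers. Whole reads could not be recovered from the FPKM, so no count test was run, and 2 entries with a failed estimate were left out. Depth was implied from the interval widths as if they held counting error alone, so it is approximate.

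FPKM + 1 was log2-transformed and fitted with limma 3.58.1 in R 4.3.3, with group as the only term, all 12 libraries and a trend in the prior variance. The fit was checked on simulated data. Those gave each gene the same spread in every library and held no shallow library, so the check does not cover these features of the real data. Shares of isoenzymes were compared by exact permutation. Groups came from the sample titles, and p-values measure the spread between mice.

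The 10 members, the lists and the tests were chosen with earlier results of these data known. Named beside the members were all list genes that passed in any comparison, 15 genes given whatever their result, and the 5 genes most like the members' mean pattern. Eno1b was named after its values were seen. Alternatives changed the pseudocount (0.1, 0.5), filter, scaling, weights, groups fitted and libraries; removal of a trend on length and GC content was added after the data were seen (96.2% of genes had values).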

Additional observations from a re-analysis of the deposited data

Results flagged for a closer look

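Of 78 groups of mice checked, 1 for each named gene in the relapse and vehicle groups, 2 held a mouse that stood far from the rest of its group. Chance alone would give about 1 in 20 such groups. Pfkl was 48.8 FPKM in relapse mouse 4, against 40.7 to 41.8 FPKM in the other 3 relapse mice. Hif1a was 13.7 FPKM in relapse mouse 4, against 14.9 to 15.1 FPKM in the other 3.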

How the results depend on the processing

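The number of the 10 genes that passed in iCT against vehicle was 0, and it became 1 with median-of-ratios scaling, 2 with quantile normalization, 1 with Eno1 and Eno1b summed and 3 with the length and GC trend removed. Leaving out a library gave 0 to 1. In relapse against vehicle it was 0, and became 1 with array weights. In relapse against iCT it was 2, and became 1 with no filter, 0 with array weights, 0 with only the groups compared in the fit, 0 with the replicate block, 3 with median-of-ratios scaling (Hk2 higher, Eno1 and Ldha lower), 3 with quantile normalization (Hk2 and Pfkl higher, Ldha lower) and 4 with the length and GC trend removed (Hk2 higher, Eno1, Gpi1 and Ldha lower). Leaving out a library gave 0 to 2. The pseudocounts and the filter at 5 FPKM moved none of these 3 counts. With median-of-ratios scaling, 1132 of 10991 genes passed in iCT against vehicle and 1020 of 10991 in relapse against iCT. With quantile normalization these were 1096 and 851 of 11019, and with the trend removed 1284 and 1120 of 10595. The cause of the shifts was not tested.

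No sign was seen that mouse numbers pair the libraries: over 10 same-numbered pairs the correlation of deviations was -0.09 to 0.10. With so few mice per group this cannot exclude a pairing. With the replicate block, 12 of 13 named calls in iCT against vehicle and 10 of 13 in relapse against iCT were lost. With only the groups compared in the fit, 11 and 11 of 13 were lost. G6pdx kept its call in both comparisons under every alternative run. Without each library in turn, 8 of the 13 calls in iCT against vehicle (Egln1, Egln3, Fbp1, G6pdx, Pgam1, Slc16a7, Slc2a6 and Vhl) and 4 of the 13 in relapse against iCT (Aldoc, Egln1, G6pdx and Slc2a6) always passed.

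Over all genes, iCT against vehicle gave 1060 calls, and 457 with array weights, 351 with only its groups in the fit, 197 with the replicate block and 569 to 2722 with a library left out. Relapse against vehicle gave 0 calls by limma with 1604 genes at an unadjusted p under 0.05, and 612 with only its groups, 971 with array weights, 1 with no filter, 2 with the length and GC trend removed and 0 to 5 with a library left out. Relapse against iCT gave 1071 calls, and 603 with array weights, 252 with only its groups, 372 with the replicate block and 529 to 1855 with a library left out. Higher and lower calls split 365 to 695 in iCT against vehicle, and 508 to 624 with median-of-ratios scaling, 526 to 570 with quantile normalization and 657 to 627 with the trend removed. In relapse against iCT they split 729 to 342, and 502 to 518, 431 to 420 and 483 to 637 under the same settings, which moved the median of all genes by -0.10, -0.14 and -0.17. Array weights gave 366 to 237 there.

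Among the log2 changes of the 10 genes, signs turned for ones that passed in no setting run. In relapse against vehicle these were Gpi1 (0.038) and Aldoa (0.0041) with quantile normalization, Tpi1 with median-of-ratios scaling (-0.059), array weights (-0.023) and the trend removed (-0.018), and Pfkl (-0.087) and Eno1 (-0.00029) with the trend removed. Tpi1 ran from -0.019 to 0.038 with a library left out. In relapse against iCT they were Aldoa (-0.033) and Pkm (-0.030) with median-of-ratios scaling, Aldoa (-0.053) and Pkm (-0.10) with the trend removed, and Pgk1, which ran from -0.18 to 0.060. Among the shares, Ldha in iCT against vehicle ran from -0.0092 to 0.853 percentage points with a library left out, and Slc2a1 in relapse against iCT from -1.18 to 9.27. With all carriers counted, the share of Slc2a1 turned to 8.15 points in iCT against vehicle (-10.2 with Slc2a3 alone) and to -11.9 points in relapse against iCT (5.30 with Slc2a3 alone). Neither passed by exact permutation, which could hardly pass with so few mice. Shallow iCT mouse 1 enters every comparison with iCT, but the calls over all genes depended on each iCT mouse. In iCT against vehicle they were 686 without iCT mouse 1, 2722 without mouse 2 and 1218 without mouse 3. In relapse against iCT they were 816, 1579 and 1855. The groups share 1 estimate of spread, so iCT mice also bear on relapse against vehicle. There 1604 genes had an unadjusted p under 0.05 by limma, and 2502 without iCT mouse 1.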
